A study of Homo sapiens with 6 samples.

Results

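The genes described here form the G1 control module of the cell cycle: the D-type cyclins CCND1, CCND2 and CCND3, their kinases CDK4 and CDK6, the CDK inhibitors CDKN1A, CDKN1B, CDKN2A and CDKN2C, and the retinoblastoma gene RB1. They were taken by gene symbol, 10 rows of the 62703 in the deposited table, and all are reported whatever their values. The choice was made with earlier results of these data known. RNA sequencing measured transcripts of 786-O, an established human clear cell renal cell carcinoma line without functional VHL protein. The control group (genotype WT, 3 libraries) and the group with OGT overexpressed (3 libraries) were both grown in RPMI-1640 with serum and antibiotics. OGT encodes the enzyme that attaches O-GlcNAc to nuclear and cytosolic proteins. How OGT was introduced, and whether the overexpressing cells are 1 clone or a pool, is not given in the sources used here.

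D-type cyclins are made in response to growth signals and activate CDK4 and CDK6. The active kinases phosphorylate RB1, which otherwise holds E2F transcription factors in check, and E2F then drives the genes of DNA replication. INK4 inhibitors such as CDKN2A and CDKN2C block CDK4 and CDK6 directly, whereas the CIP/KIP inhibitors CDKN1A and CDKN1B act mainly on CDK2 complexes and also bind cyclin D complexes. In renal carcinoma cells that lack VHL, CCND1 is a known HIF-2α target, and 786-O is known to have lost CDKN2A.

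Values are TPM, a transcript abundance scaled by transcript length and by library, so levels of different genes can be set side by side. TPM keeps no read total, so the depth of each library is unknown and counting error cannot be given. OGT lay between 22.57 and 23.62 TPM in the control libraries and between 270.87 and 352.92 TPM in the OGT libraries, the direction its labels give. Of 12 markers of renal epithelium and clear cell carcinoma, 10 reached the filter of 1 TPM in at least 3 libraries, with PAX8 at 124.78 TPM or more in every library, while CA9 stayed below 1 TPM. Of 15 markers of other cell types, CD68, a lysosomal gene, and GFAP reached it. The list summed to 72.32 to 79.02 TPM in control and 103.75 to 123.08 TPM in OGT libraries, most of it CD68, which was called higher. Without CD68 the other 14 summed to 5.15 to 18.43 TPM in control and 2.2 to 3.51 TPM in OGT libraries, and 6 of them were listed at 0 throughout. The leukocyte gene PTPRC, singled out after its values were seen, was listed at 12.23 TPM in control replicate 1 and at most 0.07 TPM elsewhere. Also picked by value, PECAM1 was highest in control replicate 1 (4.22 TPM, next 2.65 TPM in OGT replicate 2). GFAP was highest in control replicate 3 (9.16 TPM, next 4.33 TPM in control replicate 2). The part of these cells' transcripts in the results was not tested. Each change below is the OGT mean minus the control mean of log2(TPM + 1), a scale that shrinks the changes of weakly expressed genes, and was tested with limma over 12645 genes; a gene is called at a Benjamini-Hochberg adjusted p below 0.05. A limma p-value sets the difference between the groups against the variation among samples within them, moderated over all genes tested. Nothing in the labels says that replicates were separate cultures, so that variation may be technical. Calls were common: 39.1% of tested genes were called higher and 9.7% lower, 48.8% in all, and the median log2 change of all genes was 0.30. Changes also followed the GC content and length of the transcript (Spearman -0.47 and 0.39 across 12348 genes, which are not independent replicates), so each gene's change with that trend removed is given beside it.

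CCND1 rose and CCND3 fell in the OGT-overexpressing cells, and these were the only calls among the 8 members that could be tested. CCND2 and CDKN2A did not reach the filter. CDK4, CDK6, CDKN1A, CDKN1B, CDKN2C and RB1 were tested and not called. That is 1 call in each direction among 8 genes, where 39.1% of all genes were called higher and 9.7% lower, and the median change of the 8 was 0.10 beside 0.30 for all genes. With the GC and length trend removed 2 of the 8 were called (28.8% of all genes in either direction), as after quantile normalization (38.0%), again CCND1 and CCND3. After median centring 1 was called higher and 4 lower (39.6% of all genes in either direction). Libraries of the groups did not overlap for CCND1 and CDKN1B (OGT above control, as for 46.2% of tested genes) and for CCND3 (OGT below control, as for 12.4%).

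**Figure D1:**
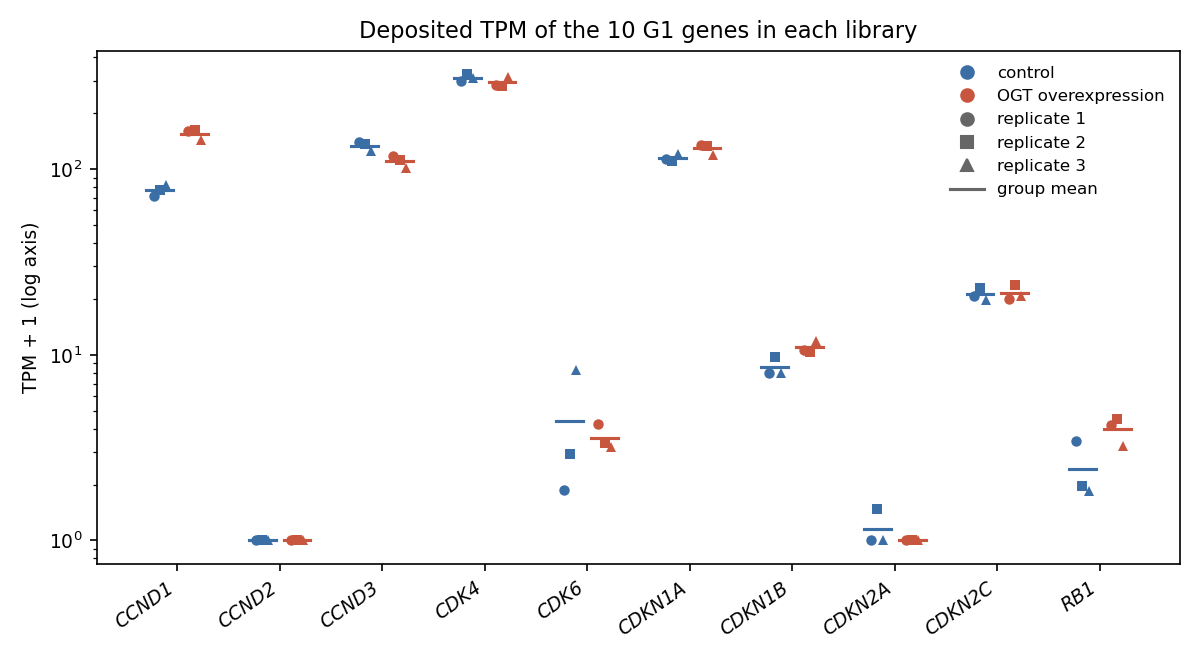
Deposited TPM + 1 on a log axis for each of the 10 genes, with 3 control libraries (blue) and 3 OGT libraries (red), 1 marker shape per replicate number, and a line at each group mean. CDK4 is highest in both groups, CCND1 and CCND3 change places, and control replicate 3 stands apart for CDK6 at 7.33 TPM.

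In control cells CDK4 had the highest level, followed by CCND3, CDKN1A, CCND1, CDKN2C and CDKN1B, and the ranges of neighbours in that order did not overlap. CDK6 overlapped both CDKN1B and RB1, the genes next to it. With OGT overexpressed the order was CDK4, CCND1, CDKN1A, CCND3, CDKN2C and CDKN1B, again without overlap between neighbours. RB1 and CDK6 overlapped each other there. CCND1 thus stood below CCND3 and CDKN1A in control cells and above both in OGT cells.

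CCND1 encodes cyclin D1, the D cyclin most often tied to epithelial cancers (ENSG00000110092, chromosome 11, 69641087 to 69654474, plus strand, GENCODE release 29 on GRCh38). It was listed at 70.38, 76.04 and 81.08 TPM in control replicates 1 to 3 and at 159.23, 161.12 and 142.06 TPM in OGT replicates 1 to 3. Every OGT library lay far above every control library, by more than the spread within either group. The means were 75.8 ± 5.35 and 154 ± 10.5 TPM (SD, n = 3 each), which is a difference of 1.01 in log2 (SE 0.0747, limma adjusted p = 1.39e-04). With the GC and length trend removed the change was 0.59 (limma adjusted p = 0.0011), after quantile normalization 0.90 and after median centring 0.63, each called. LTO1 overlaps CCND1 on the opposite strand and was listed at 9.44 to 20.7 TPM. Overlap was judged by gene start and end only. The strand setting of the counting is not given, and whether reads were shared was not tested.

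CCND3 encodes cyclin D3, which is prominent in lymphoid cells but is also made in many epithelia (ENSG00000112576, chromosome 6, 41934933 to 42050357, minus strand). It was listed at 138.44, 135.01 and 124.23 TPM in the control libraries and at 116.27, 110.33 and 100.85 TPM in the OGT libraries. The lowest control library lay above the highest OGT library. The means were 133 ± 7.42 and 109 ± 7.78 TPM, which is a difference of -0.28 in log2 (SE 0.0701, limma adjusted p = 0.0153). The change was -0.35 with the GC and length trend removed, -0.38 after quantile normalization and -0.67 after median centring, all called. Leaving out 1 library at a time gave limma adjusted p from 0.016 to 0.04998, the highest without control replicate 2. CCND2, which encodes cyclin D2, was listed at 0 in all 6 libraries.

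Because both cyclins come from the same library, their ratio is free of any scaling common to that library. It is not free of the GC and length trend. The reference transcripts differ in both, with 50.3% GC and 4307 bases for CCND1 and 56.2% GC and 2394 bases for CCND3. With that trend removed the separate changes were 0.59 and -0.35, and the ratio itself was not tested that way. Cyclin D1 made up 33.7%, 36.0% and 39.5% of summed D cyclin TPM in the control libraries and 57.8%, 59.4% and 58.5% in the OGT libraries. CCND3 was the larger component in every control library and CCND1 in every OGT library. The log2 ratio of CCND1 to CCND3 went from -0.80 ± 0.18 to 0.49 ± 0.046, a difference of 1.29 (exact permutation test, two-sided, p = 0.1, the smallest that 3 against 3 allows; adjusted p = 0.3 over 3 ratios). Summed D cyclin transcript was 208 ± 2.89 TPM in control and 263 ± 17.8 TPM in OGT cells, with 242.91 TPM in the lowest OGT library and 211.05 TPM in the highest control library. Unlike the ratio, this sum depends on the scaling of each library, and it was not tested. The median log2 change of all genes tested was 0.30 as deposited and -0.09 after median centring.

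**Figure D2:**
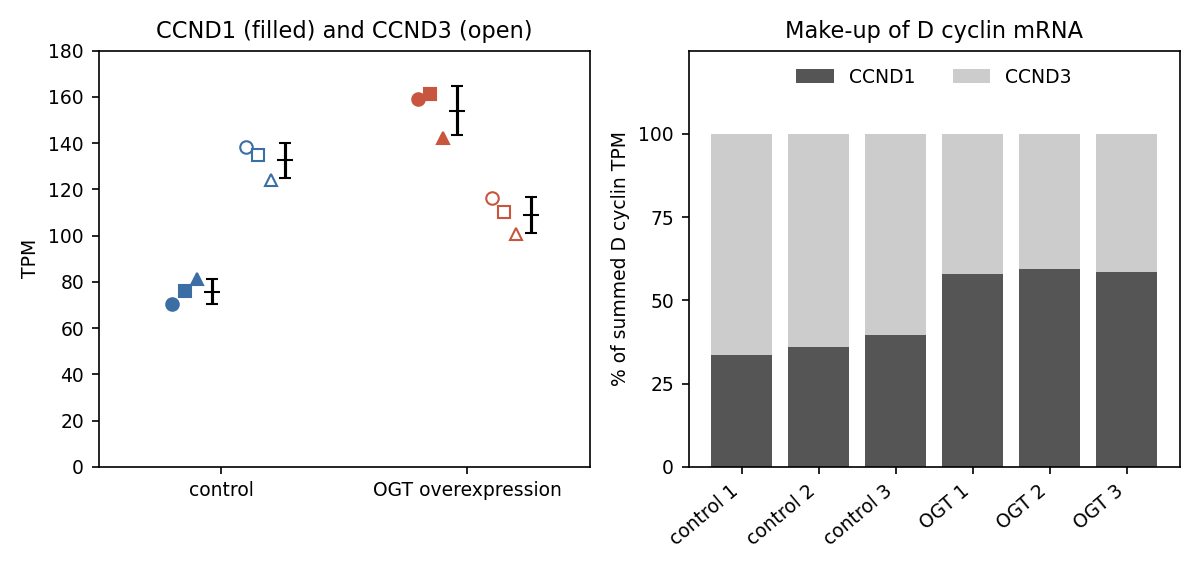
Left, TPM of CCND1 (filled) and CCND3 (open) in each library, with mean and SD (n = 3) beside the points. Right, percent of the summed D cyclin TPM that is CCND1 (dark) or CCND3 (light) in each library: CCND1 holds 33.7% to 39.5% in the control libraries and 57.8% to 59.4% after OGT overexpression.

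Sequence before the start site is shown for CCND3, the called member that the RefSeq promoter table (GRCh38.p14) holds, and for CDK4, the most abundant member. The table holds 8 of the 10 members, with 14 start sites in all; CCND1 and CCND2 have no entry. Each sequence runs 5′ to 3′ on the gene's strand over the 250 bases before the start and is in lower case except for matches to CACGTG, the E-box bound by MYC and related factors, or to ACGTG or GCGTG, the core of the hypoxia response element, searched on both strands. The CCND3 sequence is one of 3 RefSeq start sites for that gene and holds no match, although a further CCND3 start site has one GCGTG. Which start sites these cells used was not measured.
CCND3, chr6:41941809-41942058, minus strand: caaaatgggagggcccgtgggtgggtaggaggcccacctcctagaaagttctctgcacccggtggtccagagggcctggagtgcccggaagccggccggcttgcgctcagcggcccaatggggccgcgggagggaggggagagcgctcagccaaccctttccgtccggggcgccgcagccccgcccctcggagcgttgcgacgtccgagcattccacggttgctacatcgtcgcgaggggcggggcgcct
CDK4, chr12:57752311-57752560, minus strand: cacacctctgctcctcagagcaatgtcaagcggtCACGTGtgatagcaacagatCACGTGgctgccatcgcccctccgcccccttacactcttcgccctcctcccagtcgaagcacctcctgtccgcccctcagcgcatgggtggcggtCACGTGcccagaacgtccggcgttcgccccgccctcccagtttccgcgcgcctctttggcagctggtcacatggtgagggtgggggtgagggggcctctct
CDK4 has 3 E-boxes, each of which also contains ACGTG on both strands, and no further hypoxia core. Of 35116 RefSeq windows of this length, 6.34% hold an E-box and 43.2% hold ACGTG or GCGTG. Among the other members, an E-box was found at 2 of 3 CDKN2C start sites. A match is a description of the letters and no evidence of binding.

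CDK4, the catalytic partner of the D cyclins (chromosome 12, 57747727 to 57756013), was listed at 297.27, 323.97 and 309.87 TPM in control and at 283.29, 278.64 and 313.29 TPM in OGT libraries. The groups overlapped. The means were 310.4 ± 13.4 and 292 ± 18.8 TPM, and the log2 change of -0.09 (95% interval -0.23 to 0.05) was not called (limma adjusted p = 0.241). With the GC and length trend removed the change was -0.18 and not called (limma adjusted p = 0.063). Median centring, which lowers every gene of the OGT libraries relative to control, gave -0.48 and a call (limma adjusted p = 0.00229). TSPAN31, which overlaps CDK4 on the opposite strand, was listed at 4.8 to 6.13 TPM in control and 14.47 to 55.85 TPM in OGT libraries. It was highest in OGT replicate 3, and whether reads were shared was not tested.

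CDK6, the other cyclin D kinase (chromosome 7, 92604921 to 92836594), was low. It was listed at 0.88, 1.93 and 7.33 TPM in control and 3.22, 2.33 and 2.17 TPM in OGT libraries. Control replicate 3 was higher than all others, and the remaining control libraries were below every OGT library. The log2 change was -0.01 (95% interval -1.25 to 1.22, limma adjusted p = 0.985) with all libraries and 0.59 (limma adjusted p = 0.132) without control replicate 3. With the GC and length trend removed the change was -0.76 and not called (limma adjusted p = 0.328). CDK4 made up 97.7% to 99.7% of the summed CDK4 and CDK6 TPM in control and 98.9% to 99.3% in OGT libraries. The log2 ratio of CDK6 to CDK4 differed by 0.076 between groups (exact permutation p = 0.9, adjusted p = 0.9). AC002454.1, an antisense gene on the opposite strand that overlaps CDK6 by gene start and end, was listed at 1.04 to 2.67 TPM. Whether it shares exon sequence or reads with CDK6 was not tested.

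CDKN1A encodes p21, a CIP/KIP inhibitor (chromosome 6, 36676460 to 36687339). It was the most abundant inhibitor, with 112.34, 109.69 and 119.36 TPM in control and 133.75, 132.26 and 118.4 TPM in OGT libraries. OGT replicate 3 fell within the control range and the other OGT libraries above it. The log2 change of 0.17 (95% interval 0.02 to 0.32) was not called (limma adjusted p = 0.0665). Nor was the change of 0.15 with the GC and length trend removed (limma adjusted p = 0.0907). CDKN1A was called higher without OGT replicate 3 (0.22, limma adjusted p = 0.0205) and lower after median centring (-0.22, limma adjusted p = 0.025). Its direction thus depended on the scaling.

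CDKN1B encodes p27, the CIP/KIP inhibitor that is removed through SKP2 as cells enter S phase (chromosome 12, 12715058 to 12722371). It was listed at 6.99, 8.76 and 6.95 TPM in control and at 9.55, 9.41 and 10.91 TPM in OGT libraries. The groups did not overlap, but the log2 change of 0.36 (95% interval 0.04 to 0.68) was not called (limma adjusted p = 0.0649), except without control replicate 2 (0.46, limma adjusted p = 0.0434). The change was -0.04 with the GC and length trend removed, -0.04 after quantile normalization and -0.03 after median centring. The log2 ratio of CDKN1A to CDKN1B differed by -0.19 between groups (exact permutation p = 0.4, adjusted p = 0.6).

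CDKN2C encodes p18, an INK4 inhibitor (chromosome 1, 50960745 to 50974633). It was listed at 19.73, 21.9 and 18.78 TPM in control and 19, 22.78 and 19.86 TPM in OGT libraries. The groups lay on top of each other. The log2 change was 0.03 (95% interval -0.22 to 0.27, limma adjusted p = 0.854). With the GC and length trend removed it was -0.08 (limma adjusted p = 0.615), and after median centring -0.36 (limma adjusted p = 0.0391). The inhibitors together summed to 142 ± 3.1 TPM in control and 159 ± 8.27 TPM in OGT libraries, and the share of CDKN1A in that sum ranged from 77.9% to 82.3% and from 79.4% to 82.4% respectively. The inhibitor sum also depends on the scaling of each library and was not tested.

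CDKN2A, which encodes p16INK4a and, in another frame, p14ARF, was listed at 0.48 TPM in control replicate 2 and at 0 in the other 5 libraries. AL359922.1, which overlaps CDKN2A on the opposite strand, was listed at 3.59 TPM in OGT replicate 2. It had 1.93 and 2.37 TPM in control replicates 1 and 3 and 0 elsewhere. Genes listed around CDKN2A at 9p21 included some at or near 0 and some with transcript. CDKN2B, the INK4 gene next to it (chromosome 9, 22002903 to 22009363), was listed at 0 in every library, as were ELAVL2 and IFNA1. CDKN2B-AS1 reached at most 0.06 TPM and DMRTA1 at most 0.61 TPM. MTAP, a methionine salvage gene on the other side of CDKN2A (chromosome 9, 21802543 to 21937651), was listed at 5.25 to 6.15 TPM in control and 8.02 to 9.95 TPM in OGT libraries (log2 change 0.59, limma adjusted p = 0.0109; -0.19 and not called with the trend removed). KLHL9, FOCAD and MLLT3 had transcript and were not called (log2 changes -0.09, 0.28 and 0.42), but KLHL9 was called lower with the trend removed (-0.87, limma adjusted p = 0.0331). FOCAD and MLLT3 turned to -0.39 and -0.36 with the trend removed and were not called. IFNA1, listed at 0, lies at 21440454 to 21441316, between KLHL9 (21329671 to 21335380) and MTAP, which both had transcript. RNA levels do not show where a deletion begins or ends.

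RB1, the target of the cyclin D kinases, was listed at 2.45, 0.97 and 0.84 TPM in control and 3.2, 3.5 and 2.24 TPM in OGT libraries (chromosome 13, 48303726 to 48599436). Control replicate 1 lay within the OGT range. The log2 change of 0.76 (95% interval 0.07 to 1.45) was not called (limma adjusted p = 0.0664), and without control replicate 1 it was called at 1.05 (limma adjusted p = 0.0129). RCBTB2, on the opposite strand of RB1, was listed at 6.62 TPM in control replicate 1 and at 0.42 to 1.18 TPM elsewhere, so the library with the highest control value of RB1 was also the highest for its neighbour, and whether reads were shared was not tested. RB1 has the lowest GC content of the members, 37.3% of its reference transcript, beside 56.2% for CCND3 and 50.3% for CCND1. With the GC and length trend removed its change was 0.02 (limma adjusted p = 0.964).

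**Figure D3:**
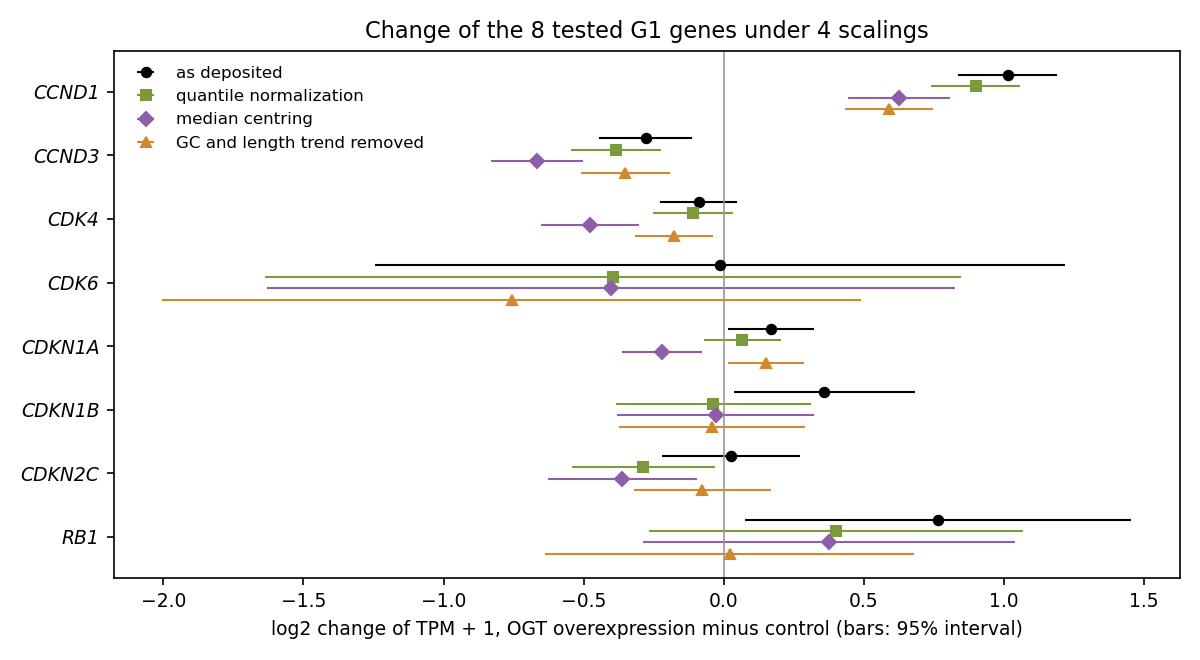
Log2 change of TPM + 1, OGT minus control, with 95% limma intervals for the 8 tested members, as deposited and under 3 other scalings. CCND1 lies above 0 and CCND3 below 0 under all 4, while CDKN1A, CDKN1B and CDKN2C change sign between scalings.

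Other genes around this module were taken from lists by role, and in their counts rose and fell mean called higher and called lower. The lists were written with earlier results of these data known. Their counts are to be read against the shares of all genes called higher and lower, 39.1% and 9.7% as deposited, 16.0% and 12.8% with the trend removed, and 15.3% and 24.2% after median centring. Of 19 further G1/S regulators 16 were tested, 9 rose and 1 fell as deposited, with a median change of 0.36 beside 0.30 for all genes. With the trend removed 1 rose and the median was -0.01 beside 0.03, and after median centring 2 rose and 3 fell. E2F7, a repressor of the E2F family, rose from 4.37 ± 0.86 to 12.7 ± 2.91 TPM (log2 change 1.34, trend removed 0.59 and not called). The activator gene E2F3 rose from 1.72 ± 0.217 to 4.53 ± 0.45 TPM (1.02, trend removed 0.37 and not called). E2F4, which works with RB family proteins in resting cells, rose from 55.5 ± 1.96 to 67.2 ± 0.363 TPM (0.27, trend removed 0.28, but -0.12 after median centring). The E2F partner gene TFDP1 rose from 22.9 ± 2.35 to 31.8 ± 1.01 TPM (0.46, trend removed 0.01). E2F7 and E2F3 were called higher after median centring and after quantile normalization, whereas E2F4 and TFDP1 were called in neither. CDKN2D, the other INK4 gene with transcript here, chosen after its values were seen because it was the only one of the list called lower, went from 26.3 ± 0.866 to 20.8 ± 2.29 TPM (-0.33, limma adjusted p = 0.0294; -0.15 and not called with the trend removed). That call was also lost with the replicate block, with no filter on low values, and without any 1 of the libraries other than OGT replicate 2. It was kept after median centring (-0.72, limma adjusted p = 0.0015) and quantile normalization (-0.64, limma adjusted p = 0.0033). CDKN1C, a CIP/KIP inhibitor gene, had a change of -0.36 that was not called (limma adjusted p = 0.161). It was -0.26 and not called with the trend removed, but called lower after median centring (-0.74) and quantile normalization (-0.76).

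Genes that turn over cyclin D and p27 stood at a median change of 0.57, with 10 of 16 tested members called higher (39.1% of all genes) and 0 lower by limma (also 0 lower at an unadjusted p below 0.05). With the trend removed 1 was called higher, CUL1, where 16.0% of all genes were, and after median centring 5 rose and 1 fell (15.3% and 24.2% of all genes). CUL1, the scaffold of the SCF ubiquitin ligases, rose from 9.07 ± 1.08 to 20.2 ± 1.9 TPM (log2 change 1.07, trend removed 0.50). SKP2, the SCF subunit that recognises p27, rose from 3.68 ± 0.657 to 7.67 ± 0.287 TPM (0.90, trend removed 0.19 and not called). The paralogous scaffolds CUL4A and CUL4B rose as deposited by 0.87 and 1.34 and were not called with the trend removed (0.11 and 0.59). CUL1, SKP2, CUL4A and CUL4B were each called higher after median centring and after quantile normalization. Over the list 8 were called higher and 0 lower after quantile normalization (20.2% and 17.8% of all genes).

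Genes for CDK activation and for the chaperones of CDK4 included both cytosolic HSP90 genes. HSP90AA1 rose from 16.3 ± 1.02 to 67.6 ± 1.82 TPM, a difference of 1.99 in log2 (SE 0.0729, limma adjusted p = 2.13e-05; trend removed 1.40). HSP90AB1 rose from 564 ± 19 to 856 ± 36.8 TPM (0.60, trend removed 0.22). CCNH and MNAT1, which encode subunits of the CDK-activating kinase, rose too (1.57 and 1.18), CCNH to 5.33 ± 2.35 TPM against 1.08 ± 0.433 and MNAT1 to 10.9 ± 2.91 TPM against 4.26 ± 1.36, and with the trend removed CCNH was called (1.05) and MNAT1 was not (0.60). Of the 6 genes 5 rose (39.1% of all genes) and 0 fell by limma (also 0 at an unadjusted p below 0.05). With the trend removed 4 rose (16.0% of all genes), and after median centring 4 rose and 1 fell (15.3% and 24.2%).

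Downstream, 20 of 33 E2F target genes of S phase rose as deposited and 0 fell by limma (also 0 at an unadjusted p below 0.05), against 39.1% of all genes higher. With the trend removed 9 rose and 2 fell (16.0% and 12.8% of all genes), and after median centring 7 rose and 8 fell (15.3% and 24.2% of all genes). RRM1, a ribonucleotide reductase subunit, rose from 7.62 ± 0.832 to 20.4 ± 0.167 TPM (log2 change 1.32, trend removed 0.70). PCNA, the polymerase clamp, rose from 44.4 ± 2.63 to 76.0 ± 4.54 TPM (0.76, trend removed 0.48). GMNN, the licensing inhibitor, rose from 4.86 ± 0.711 to 15.3 ± 2.02 TPM (1.48, trend removed 1.16). It was joined by the helicase subunit gene MCM6, which rose from 5.13 ± 0.307 to 11.9 ± 0.445 TPM (1.08, trend removed 0.41). These 4 were called under all 4 scalings.

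Of 29 tested G2/M genes 21 rose and 1 fell (39.1% and 9.7% of all genes), with a median change of 0.70; 2 were lower at an unadjusted p below 0.05. With the trend removed 13 rose and 2 fell (16.0% and 12.8% of all genes), and after median centring 13 rose and 8 fell (15.3% and 24.2%). MKI67, the proliferation antigen, rose from 5.01 ± 0.88 to 17.3 ± 0.293 TPM (log2 change 1.62, trend removed 1.12). TPX2, a spindle factor, rose from 48.5 ± 2.21 to 99.5 ± 4.39 TPM (1.02, trend removed 0.49). CCNA2 and AURKA rose by 1.17 and 0.91 (trend removed 0.57 and 0.52). CKS2, chosen after its values were seen as the one called lower as deposited, went from 242 ± 9.26 to 197 ± 20.3 TPM (-0.30, trend removed -0.51), and lost the call without control replicate 2. CDC25C, a phosphatase gene also chosen after its values were seen, had a change of -0.33 from 8.04 ± 0.27 to 6.21 ± 0.714 TPM. It was not called as deposited (limma adjusted p = 0.0741) and was called lower with the trend removed (-0.70, limma adjusted p = 0.00721), after median centring and after quantile normalization. TTK, a mitotic kinase gene, passed the filter through the OGT libraries alone.

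**Figure D4:**
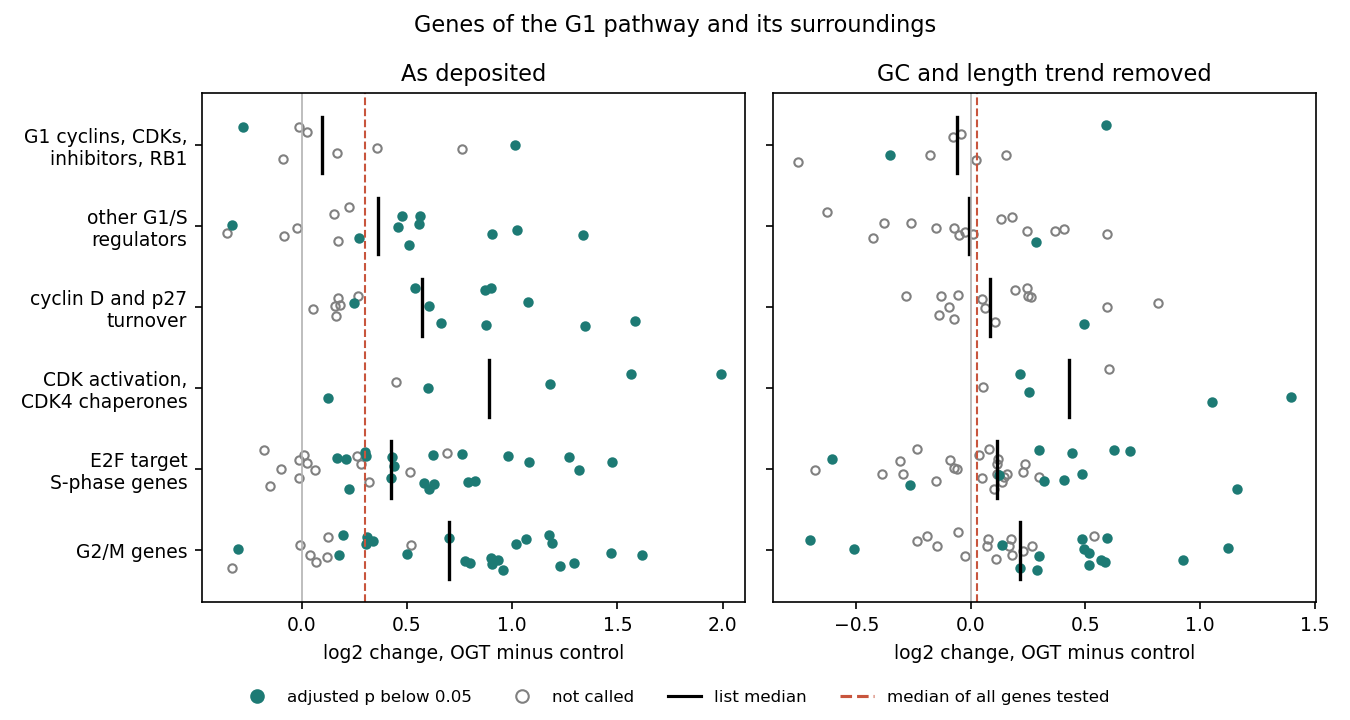
Log2 change, OGT minus control, of every tested gene of the module and of the 5 lists around it, as deposited (left) and with the GC and length trend removed (right); filled points have a limma adjusted p below 0.05, black bars are list medians and the dashed line is the median of all genes tested. List medians run from 0.10 to 0.89 on the left and from -0.06 to 0.43 on the right.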

How the data were processed

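The 6 libraries were prepared from total RNA of 786-O cells with an Illumina TruSeq kit, per the labels' protocols. The authors deposited TPM per gene, 1 column per library, under human Ensembl identifiers; the unit was read from the column totals, 993936 to 996952. The sources used here name no aligner, counting tool or strand setting. GRCm38 and mm10, which are mouse builds, appear in the submitters' processing notes. Groups and replicates came from the sample titles.

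Genes reaching 1 TPM in 3 or more samples entered a limma fit of log2(TPM + 1) (limma 3.58.1, R 4.3.3, eBayes with trend and robust, two-sided, Benjamini-Hochberg over all genes tested), in 1 contrast; the fit was tested on simulated data. GC content, length and coordinates came from GENCODE release 29 by identifier (the longest transcript, a coding one if any), which need not be the transcript expressed. Trend removal used natural splines with 4 degrees of freedom per library and also centres libraries. Ratios were compared by exact permutation (scipy 1.17.1).

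The members, lists and alternatives were chosen with earlier results of these data known. Named genes were all members, OGT, every 9p21 gene, and up to 4 per list with the smallest adjusted p among those called; the text says where a gene was added after its values were seen. A further list is not reported here. Alternatives were a pseudocount of 0.1, no filter, a mean of at least 5 TPM, quantile normalization, median centring, trend removal, each replicate left out and a replicate block.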

Additional observations from a re-analysis of the deposited data

How the results depend on the processing

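CCND1 and CCND3 kept direction and call in all 13 alternatives. Members called lower numbered 4 after median centring, and members called higher 1 to 2 with 1 library left out. All genes called higher numbered 2558 under quantile normalization, 1937 after median centring and 1974 with the trend removed, and called lower 2245 under quantile normalization and 3066 after median centring. Over the 5 lists 65 genes were called higher, and 43, 31 and 28 under quantile normalization, median centring and trend removal. Called lower were 2 as deposited, 7, 21 and 4 under those settings, 1 with no filter, and 0 to 2 with 1 library left out (0 without control replicate 2).

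Signs turned for CDK6 with a pseudocount of 0.1 (0.10) and between -0.48 and 0.59 with 1 library left out, and for CDKN1A after median centring (-0.22). CDKN1B turned under quantile normalization (-0.0373), median centring (-0.0297) and trend removal (-0.0421). CDKN2C turned under quantile normalization (-0.29), median centring (-0.36) and trend removal (-0.077), and lay between -0.047 and 0.086 with 1 library left out. The CDK6 to CDK4 difference lay between -0.36 and 0.69 with 1 library left out. The cause was not tested. TPM gives no depth, so the lowest members, CDK6, RB1 and CDKN2A, have unknown counting error.

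Same-numbered samples did not deviate together (correlations -0.0194, 0.0026 and 0.0166; its own number gave the best correlation for 1 of 6 samples), so they were not taken as pairs. With the number as a replicate block 1 member was called higher and 1 lower, 4382 genes were higher and 1091 lower, and 1 list gene was lower.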

Other observations

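Single libraries stood far above the other 5 for some genes, at 5 TPM or more and at least 3 times the next library. Of 12645 tested genes this held for 73 in control replicate 1, 20 in control replicate 2 and 48 in control replicate 3, and for 15, 15 and 66 in OGT replicates 1 to 3. RBL1, the RB1 relative that encodes p107, was among those of control replicate 3, at 7.29 TPM there and at most 2.23 TPM elsewhere. Other genes stood highest in 1 library by less than that margin. CDK6 was highest in control replicate 3 (7.33 TPM, next 3.22 TPM). In control replicate 1 the kinetochore gene CENPF was listed at 22.71 TPM (next 8.74 TPM) and the replication factor gene RFC3 at 10.7 TPM (next 6.04 TPM). The named examples were picked with their values known.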
